A study of Mus musculus with 10 samples.

Results

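The genes described here are 7 caspases (Casp1, Casp2, Casp4, Casp6, Casp8, Casp9 and Casp12) and Apaf1, chosen by name. They make up 8 of the 18535 genes to which the arrays' accessions could be matched, and they are read by 10 of 41174 probes. Each caspase has 1 probe and Apaf1 has 3. Of these, Casp9 alone gave more signal in hemibrain RNA than in the RNA it was hybridized against on every array, at a median of 1.93-fold. Casp1, Casp2, Casp4, Casp6, Casp8 and Casp12 were lower in hemibrain on every array. On the scanner software's processed signals their medians ran from 3.6-fold (Casp2) to 45.4-fold (Casp4) lower. The hemibrain signal of Casp4 lay near background, and its fold was 21.9 and 20.3 under other background corrections. The brightest Apaf1 probe was 2.27-fold below the other RNA at its median, with 1 array short of the limit set for a lower call.

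The left hemibrains came from male C57BL/6J mice, which were housed alone from the age of 3 weeks on SD (standard lab diet) or FD (a fish oil diet rich in n-3 PUFA) and killed at 5 months, after about 20 weeks. On each of 10 dual dye arrays, the RNA of a single hemibrain was labeled with Cy-5 and a second RNA with Cy-3. The annotations of the arrays give FD for every Cy-5 sample and pooled SD hemibrain for Cy-3, while their descriptions read controls, and the study's methods instead name FD-fed and SD-fed animals against a commercial reference RNA. No array could therefore be placed in a diet group, and FD was not compared with SD. Values are given by the animal's number (C10-413 to C10-437), or as the lowest, the median and the highest of the 10 arrays, and no test treats the arrays as replicates of a diet. A hemibrain holds many cell types, so that fewer cells of a type and less RNA per cell cannot be told apart in these values.

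Caspases are cysteine proteases that cut proteins after aspartate residues. Initiator caspases are activated on large complexes and cut executioner caspases, which take the cell apart. The inflammatory caspases process cytokines and cut a protein that then forms pores in the membrane. In the mitochondrial route, cytochrome c binds Apaf1, which assembles into the apoptosome and activates Casp9. In the brain this route removes surplus neurons during development, and it is known to be damped in mature neurons.

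The tissue was checked first, because it fixes what a ratio means here. The median log2 Cy-5/Cy-3 of 6 neuronal markers lay between 6.30 and 8.07 on the 10 arrays, that of 4 astrocyte markers between 5.30 and 6.61, and that of 4 oligodendrocyte markers between 5.04 and 5.86. Mog, a myelin protein, did not rise well above background in Cy-3 on any of the 10 arrays. Markers of proliferating cells ran the other way. The median of Mki67, Top2a, Cdk1 and Ccnb1 lay between -6.73 and -6.11, and their summed signal was 1802 to 2944 in Cy-5 against 56442 to 137450 in Cy-3. Ptprc, a surface protein of leukocytes, had a median log2 ratio of -5.89. The Cy-5 markers are those of brain. The Cy-3 values go against a pool of hemibrains and are those of an RNA low in brain transcripts and high in proliferation transcripts. A ratio below 0 therefore says that a member was lower in hemibrain than in that RNA, and the part that the makeup of the Cy-3 RNA has in each ratio was not tested.

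A probe was counted as higher or lower when its log2 ratio was at least 1 or at most -1 on every array and the brighter dye was well above background, by the scanner software's own flag, on every array. By this rule 0 of the 10 member probes were higher, against 10.8% of all probes (4333 of 40060). Lower were 7 of the 10, those of Casp1, Casp2, Casp4, Casp6, Casp8 and Casp12 and 1 probe of Apaf1, against 13.7% of all probes (5478 of 40060). The Apaf1 probe among them, A_52_P621991, never rose above background in Cy-5, so its measured ratios met the rule but a ratio of at most -1 on every array is not shown for it, as its bound on single arrays reached down to 0.94-fold. The other 3 probes were that of Casp9 and the remaining ones of Apaf1. On the looser measure of sign alone, 9 of the 10 member probes lay below 0 on every array, as did 31.1% of all probes. The median of the members' median log2 ratios was -2.34, against 0.03 over all probes, and -2.28 when that Apaf1 probe was set at its bound. After background subtraction with a floor, the shares of all probes were 9.39% higher and 7.35% lower, and 6 member probes were lower. With the correction named normexp, 1 member probe was lower (Casp2), against 1.35% of all probes, and 5 when C10-413 was left out as well, against 5.14%.

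**Figure D1:**
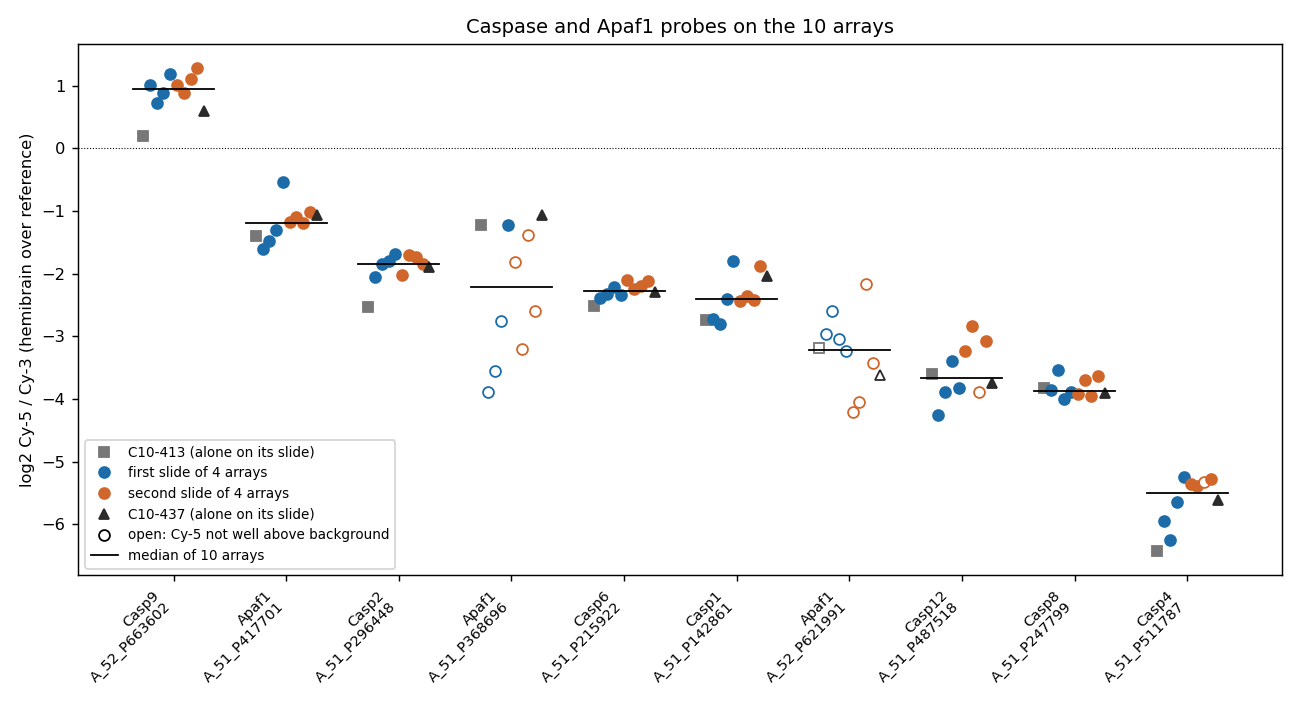
Log2 Cy-5/Cy-3 of the 10 probes (y axis) on each of the 10 arrays (points), with probes ordered by their median (bar), colour and shape for the slide, and open symbols where Cy-5 was not well above background. Casp9 lies above 0 on every array and all other probes lie below it, down to a median of -5.51 for Casp4.

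Casp9, the initiator protease of the apoptosome, gave log2 Cy-5/Cy-3 of 0.20 at its lowest (C10-413), 0.95 at the median and 1.28 at its highest (C10-435). It lay above 0 on all 10 arrays, which was so for 26.6% of all probes, and its median was higher than that of 79.4% of them. The value reached 1 on 5 arrays, and so Casp9 did not meet the rule. C10-413 was the only array under 0.60, and without it the range was 0.60 to 1.28. The processed signal of the probe was 3618 to 8769 in Cy-5 and 1673 to 3870 in Cy-3, well above background in both dyes on every array. Casp9 was the member that moved least with the background correction. The median was 1.02 with a floor and 0.93 with normexp, where the lowest array fell to -0.05.

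Apaf1, the scaffold of the apoptosome, was read by 3 probes that disagreed in size. The brightest, A_51_P417701, had a log2 ratio of -1.61 at its lowest (C10-415), -1.19 at the median and -0.54 at its highest (C10-423). It was at most -1 on 9 of the 10 arrays, and C10-423 alone kept it from being counted as lower, since without that array it ran from -1.61 to -1.01. The second, A_51_P368696, spread from -3.89 to -1.06 around a median of -2.21. Its Cy-5 signal was only 12.2 to 82.7, which cleared background on 3 arrays, and those 3 arrays (C10-413, C10-423 and C10-437) gave the 3 values nearest to 0. The third, A_52_P621991, had a measured median of -3.21, with the Cy-5 spot flagged as well above background on 0 arrays and the Cy-3 spot on 10. Its ratio thus gives no measured size, and a bound was set in its place. Cy-5 was taken as no dimmer than the dimmest probe that was well above background on each array. The probe was then 4.89-fold lower in Cy-5, with means of 8.21 (log2 signal, Cy-3) and 5.92 (bound, Cy-5). On the single arrays the bound ran from 0.94 to 8.57. It is not a least fold for this probe, whose median was 1.85-fold lower with a floor and 1.64-fold with normexp. The dim probes were the ones that background correction moved most. With a floor the 3 medians were -0.88 for A_51_P417701, -0.53 for A_51_P368696 and -0.89 for A_52_P621991, and with normexp they were -0.66, -0.37 and -0.71. All 3 stayed below 0 at their medians, but the size of the difference for Apaf1 is known only from its brightest probe.

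Both partners of the apoptosome were thus measured on the same arrays, with ratios on opposite sides of 0. The log2 ratio of Casp9 exceeded that of the brightest Apaf1 probe on 10 of 10 arrays, by 1.60 (C10-413) to 2.62 (C10-415) with a median of 2.19. This is a difference between 2 ratios to the Cy-3 RNA and not between levels of Casp9 and Apaf1, since signals of different probes cannot be set against each other.

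Casp2 and Casp8 are the initiators outside the apoptosome. Casp2, which is activated on a platform of Pidd1 and Cradd known as the PIDDosome, had a log2 ratio of -2.53 at its lowest (C10-413), -1.85 at the median and -1.69 at its highest (C10-423). C10-413 stood alone, as the other 9 arrays lay between -2.06 and -1.69. The Cy-5 signal of 3062 to 8160 and Cy-3 signal of 10160 to 26364 were far above background. Casp8, which death receptors activate through Fadd and which also holds back necroptosis, ran from -4.00 (C10-417) through a median of -3.88 to -3.53 (C10-416). All 10 arrays fell within 0.47 of each other. Its Cy-5 signal was 218 to 601 against 3407 to 8480 in Cy-3, or 14.7-fold lower at the median. With the floor the Casp8 median was -3.04 (8.23-fold) and with normexp -2.89 (7.39-fold).

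Casp6 is the executioner among the members and is known for cutting the nuclear lamin A. Its log2 ratio was -2.51 at the lowest (C10-413), -2.27 at the median and -2.10 at the highest (C10-424). The range of 0.41 was the narrowest of all 10 member probes. Cy-5 signals of 1019 to 2273 stood against Cy-3 signals of 4673 to 11733, or 4.83-fold lower at the median.

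Casp1, Casp4 and Casp12 form the inflammatory group, and in the gene table used for names they follow each other directly along the chromosome as Casp1, Casp4 and Casp12. Casp1, which matures interleukins inside inflammasomes, ran from -2.80 (C10-416) through -2.41 to -1.80 (C10-423), with Cy-5 signals of 483 to 1803. Casp4, which senses bacterial lipopolysaccharide in the cytosol (it is also called Casp11 in mice), had the lowest ratio of the members at -6.43 (C10-413), -5.51 and -5.25 (C10-423). Only 0.424% of all probes had a lower median. The Cy-3 signal of Casp4 was 6040 to 15409 and its Cy-5 signal 150 to 373, which was well above background on 9 of 10 arrays, C10-434 being the exception. Casp12, a relative placed at the endoplasmic reticulum, ran from -4.25 (C10-415) through -3.67 to -2.83 (C10-425), again with Cy-5 not well above background on C10-434. The folds of Casp4 and Casp12, whose Cy-5 signals lay near background, moved with the correction. Casp4 was 45.4-fold lower on the processed signals, 21.9-fold with the floor and 20.3-fold with normexp. Casp12 was 12.7-fold, 5.39-fold and 4.31-fold lower, and Casp1 5.31-fold, 3.89-fold and 3.23-fold.

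Cells that are known to carry inflammatory caspases were compared between the dyes by their markers. The 6 microglial markers had a list median of 2.05 to 2.63 (log2 Cy-5/Cy-3). Their summed signal was 11507 to 38315 in Cy-5 and 5815 to 14772 in Cy-3. The medians of single markers ran from 0.12 (Tmem119) to 6.12 (P2ry12), with Csf1r at 0.87 and Aif1 at 1.06. The Cy-3 spot of P2ry12 rose well above background on 0 arrays, while those of 4 of the 6 markers did so on every array. The 4 markers of other leukocytes had a list median of -0.33 to 0.13, and their summed signal was 784 to 1855 in Cy-5 against 8824 to 21809 in Cy-3. Thus Casp1, Casp4 and Casp12 were lower in the RNA that was higher in microglial markers, and higher in the RNA that was higher in Ptprc. Their part in the caspase ratios was not tested.

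**Figure D2:**
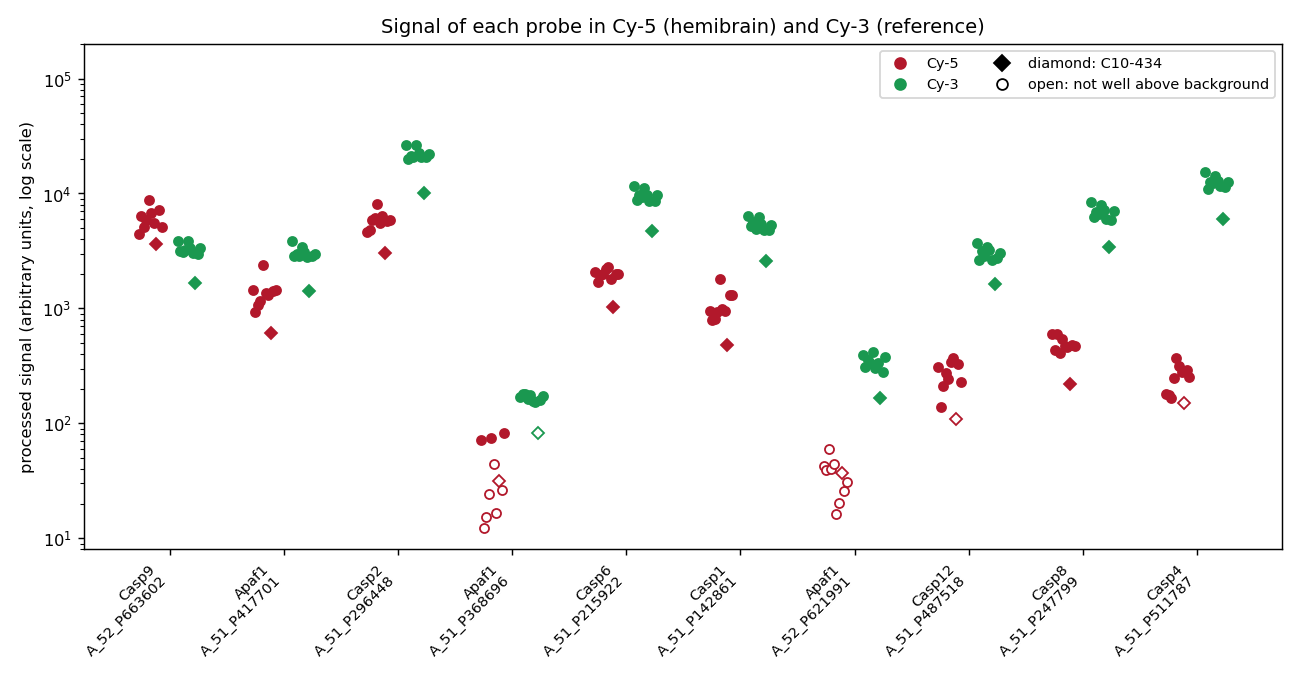
Processed signal (y axis, arbitrary units, log scale) of each probe in Cy-5 (red) and Cy-3 (green) on the 10 arrays, with diamonds for C10-434 and open symbols where a spot was not well above background. The Cy-5 signals of Casp4 and Casp12 reach down to 150 and 109, the dim Apaf1 probes lie lower still, and C10-434 is the lowest array in Cy-3 for every probe; signals of different probes are not comparable.

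Ordered by the median ratio, with Apaf1 at its brightest probe, the members ran Casp9, Apaf1, Casp2, Casp6, Casp1, Casp12, Casp8 and Casp4. Neighbours that kept this order on all 10 arrays without overlap of their ranges were Casp9 and Apaf1, Apaf1 and Casp2, Casp1 and Casp12, and Casp8 and Casp4. The ranges of Casp2 and Casp6 overlapped, with 9 of 10 arrays in this order. Those of Casp6 and Casp1 overlapped as well, with 7 of 10, and those of Casp12 and Casp8 with 8 of 10. Inside each of these 3 pairs the order is not settled by the arrays. The gaps were not all kept under background correction. With the floor Casp1 and Casp12 overlapped (9 of 10 arrays in this order), as did Casp8 and Casp4, and with normexp Casp1 and Casp12 (6 of 10), Casp8 and Casp4, and Apaf1 and Casp2 did. Casp8 stayed above Casp4, and Apaf1 above Casp2, on 10 of 10 arrays under both. It is an order of ratios to 1 other RNA, not of transcript abundance.

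The other genes of these pathways, 26 in all and each at its brightest probe, lay on both sides of 0. Of them 1 was higher and 8 were lower, where 10.8% and 13.7% of all probes were, and 17 met neither rule. A median below 0 was found for 19 of the 26, against 48.5% of all probes. In the mitochondrial arm 1 of 5 genes was lower (all probes, 13.7%), Xiap, an inhibitor of Casp9, at -2.59 (range -4.24 to -1.75). The Cy-5 signal of Xiap was only 30.6 to 196, well above background on 8 of the 10 arrays. Cycs, which encodes the cytochrome c that binds Apaf1, had a median of 0.34 and a range of 0.27 to 1.00 over the 9 arrays on which its spot carried no outlier flag.

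The death receptor arm held 4 lower genes of 8 (all probes, 13.7%). These were the receptor Tnfrsf1a (median log2 ratio -2.62) and the adaptor and kinase genes Fadd (-1.96), Tradd (-1.73) and Ripk1 (-3.32). Cflar, the inhibitor that pairs with Casp8, had a median of -0.85 and met neither rule, and Fasl was highest in this arm at 0.30, with a Cy-5 spot that cleared background on 5 arrays. Neither gene of the PIDDosome met a rule, and both lay above Casp2, with Cradd at 0.93 and Pidd1 at -0.07. In the inflammasome group, Il18, a cytokine that Casp1 matures, was the 1 higher gene at 2.34 (range 2.01 to 2.79). The 3 lower genes of 7 (all probes, 13.7%) were Il1b, the other cytokine that Casp1 matures, at -2.19 with Cy-5 well above background on 1 array, the adaptor Pycard at -1.59, and Gsdmd, the pore protein cut by Casp1 and Casp4, at -3.55. The Cy-5 spots of Nlrc4 and Aim2 cleared background on 0 arrays, and their Cy-3 spots on 0 and 1, so their ratios give no direction. Of 4 genes of nuclear execution none met a rule, and Lmna, which encodes the lamin A cut by Casp6, was lowest at -1.21 and Dffa highest at 0.32.

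**Figure D3:**
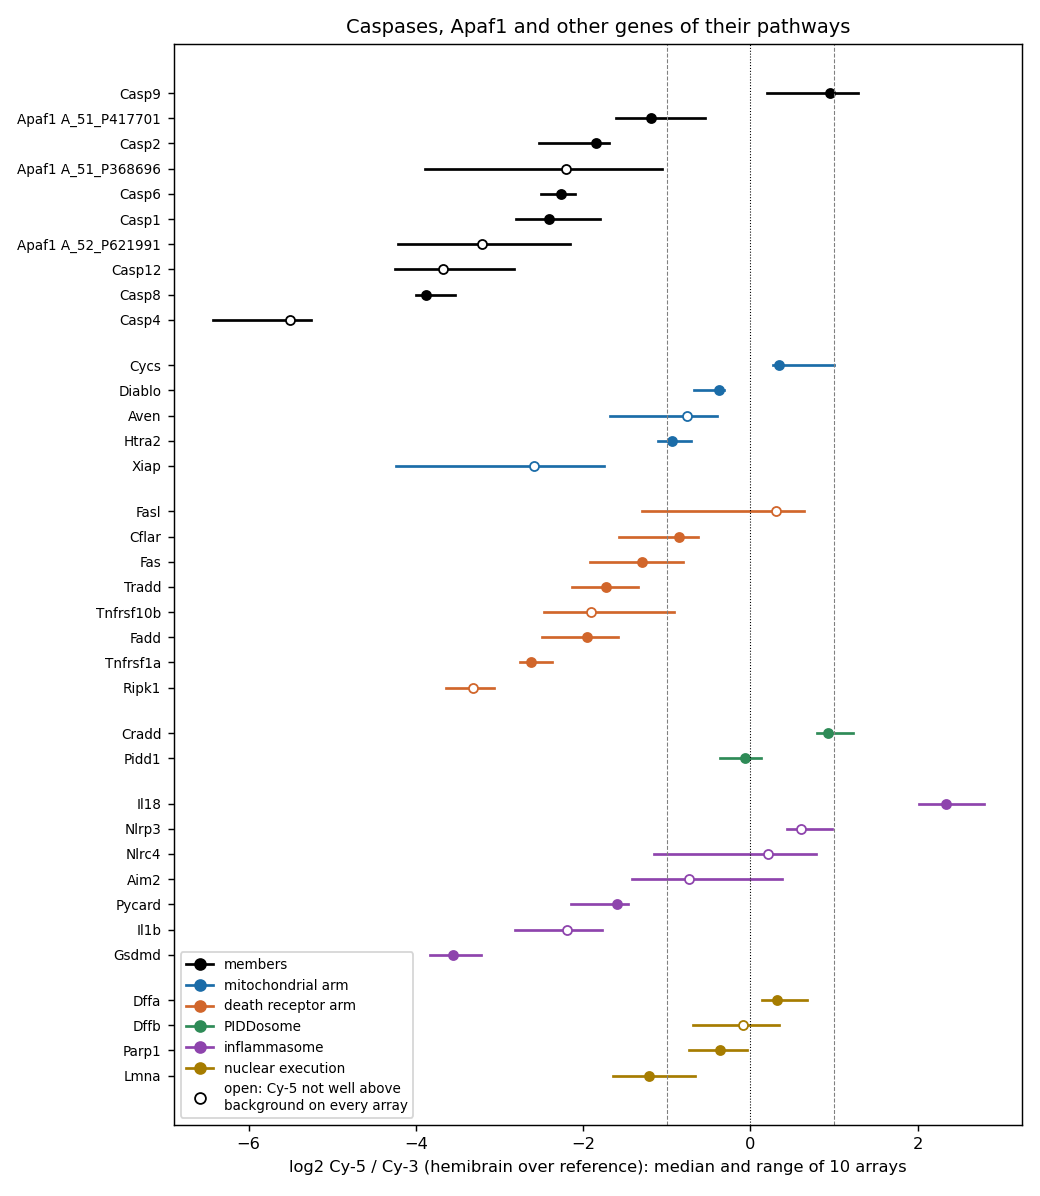
Median (point) and range (line) of log2 Cy-5/Cy-3 over the arrays (x axis) for the member probes in black and 26 further genes of their pathways in colour by group, with dashed lines at -1 and 1 and open points where Cy-5 was not well above background on every array. The medians of the members other than Casp9 sit at or below -1.19, while the other genes spread from -3.55 (Gsdmd) to 2.34 (Il18).

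Variation between arrays was then taken as the range over the 10 arrays. Each array carries a single animal of unknown diet, so animal, diet, labeling and slide cannot be told apart in this range. Of the 6 member probes well above background in both dyes on every array, those of Casp1, Casp2, Casp6, Casp8 and Casp9 and the brightest of Apaf1, the median range was 0.92, against 0.84 over the 17612 probes that met the same condition. On the processed signals Casp6 (0.41) and Casp8 (0.47) were the steady ones, and only 4.25% and 8.33% of those probes had a smaller range. Their ranges changed with the background correction. With the floor Casp6 ran from -2.19 to -1.71 and Casp8 from -3.41 to -2.44. With normexp they ran from -2.18 to -0.53 and from -3.28 to -0.43, both highest on C10-413. Casp2 (0.84), Casp1 (1.00), Apaf1 (1.07) and Casp9 (1.08) lay between 50.3% and 72.5%. No member ranged more widely than 1.74, the 95th percentile, in this set. The array of C10-423 gave the highest ratio for 4 probes, of Casp1, Casp2, Casp4 and Apaf1, and C10-413 the lowest for 4, of Casp2, Casp4, Casp6 and Casp9. C10-434, whose Cy-5 spots cleared background for 49.8% of all probes (68.2% to 76.9% elsewhere), had the lowest ratio for 0 member probes and the highest for 1, the Apaf1 probe A_52_P621991.

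The arrays lay on 4 slides, of which 2 held 4 arrays each. Comparing these slides asks whether the members moved with a technical batch, although the slides carry different animals of unknown diet, so that slide, labeling and animal cannot be told apart. With limma and Benjamini-Hochberg adjustment over 40299 probes, 30 probes (0.0744%) differed and 0 of the 10 member probes did. At an unadjusted limma p under 0.05 the counts were 4034 of all probes (10%) and 0 of the members. With the floor 2 member probes passed this limit, against 5.78% of all probes. Without C10-423 it was 2 (12.6% of all probes), without C10-434 2 (10.6%) and without C10-417 1 (7.6%). The differences of the members lay between -0.50 and 0.60 on the log2 scale, 9 of the 10 above 0, with adjusted p from limma between 0.529 and 0.994. Casp12 came nearest. It averaged -3.84 on the first slide (range -4.25 to -3.39) and -3.26 on the second (-3.89 to -2.83), a difference of 0.58 (SE 0.27, limma adjusted p = 0.529). For Casp4 the means were -5.77 and -5.33, a difference of 0.44 (SE 0.22, limma adjusted p = 0.578). The values of the slides overlapped for all 10 member probes, while they did not overlap for 5.67% of all probes. Leaving out C10-434 raised the Casp12 difference to 0.79 and took that of the Apaf1 probe A_52_P621991 to -0.93, with limma adjusted p of 0.249 and 0.205. Without C10-423 the differences grew most for 4 probes, to 1.15 for the dim Apaf1 probe A_51_P368696 (from 0.60), 0.61 for Casp4, 0.37 for Casp1 (from 0.16) and 0.34 for the brightest Apaf1 probe (from 0.11), with limma adjusted p of 0.372, 0.251, 0.504 and 0.406.

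With loess on top of the processed signals, Casp9 lay at 1.15 and the brightest Apaf1 probe at -0.94, and no member median shifted by more than 0.28. Centring each array on its median moved no member median by more than 0.04. The table deposited by the authors gave the same medians as the processed signals. The background correction moved them most. With the floor the shift was largest for the 2 Apaf1 probes that were dimmest in Cy-5, by 2.32 for A_52_P621991 and 1.68 for A_51_P368696, followed by Casp12 (1.24) and Casp4 (1.06), and it was 0.19 for Casp2. No member median changed sign under any of the 8 ways of processing, and Casp4 stayed the lowest and Casp9 the highest in all of them.

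**Figure D4:**
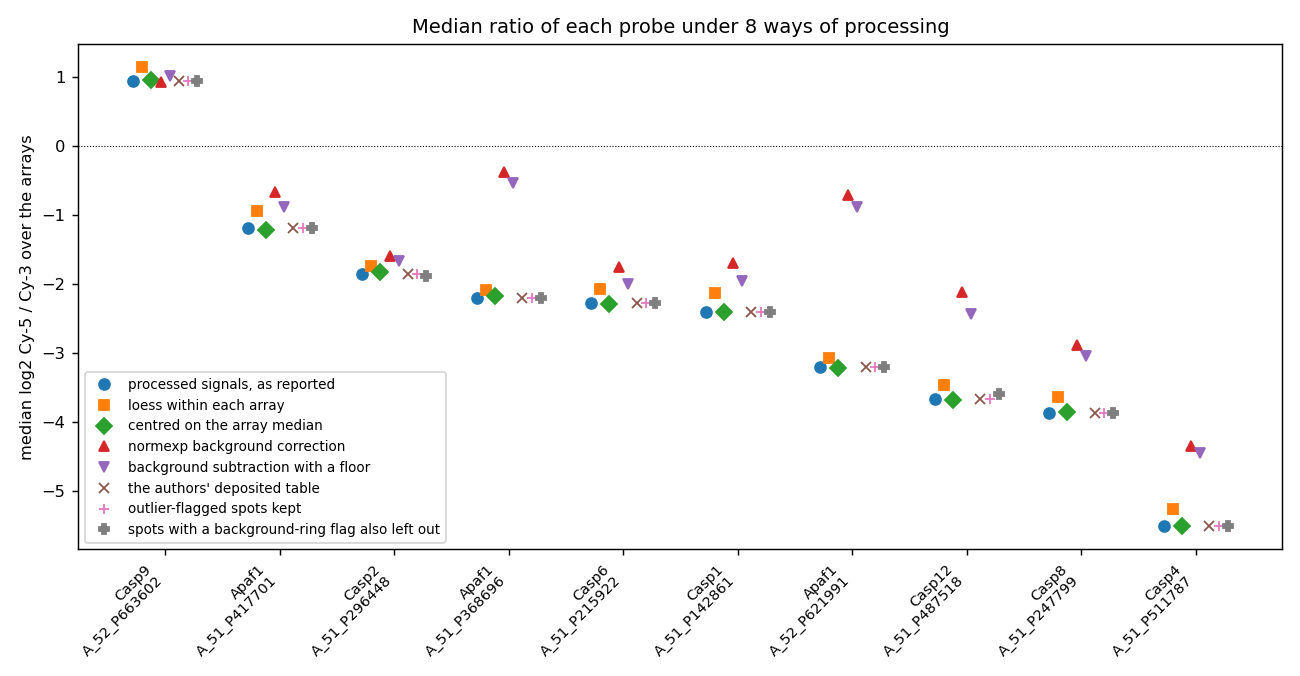
Median log2 Cy-5/Cy-3 over the arrays (y axis) of each probe under 8 ways of processing (symbols). The red and purple triangles, for normexp and for background subtraction with a floor, lie nearer to 0 for every member but Casp9, by the most for the dim Apaf1 probes.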

How the data were processed

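RNA of 10 mouse hemibrains was hybridized to Agilent dual dye arrays, Cy-5 for the hemibrain and Cy-3 for a second RNA. The authors scanned the slides and deposited, per array, the output of Feature Extraction (version 10.10.1.1 in the files), with intensities on a linear scale. Its processed signals are background-subtracted and dye-normalized (linear and lowess). The authors also deposited a table of log2 ratios, which lay within 0.001 of log2 Cy-5/Cy-3 of the processed signals for 100% of probes.

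From the processed signals, log2 Cy-5/Cy-3 was computed for 43379 spots per array without controls. Spots whose feature carried an outlier flag were left out, spots of a probe were averaged, and a probe was well above background when at least 0.5 of its spots were flagged so. No spot was saturated. The precision is limited by the number of arrays and by the height of a signal over its background. Probes were named by RefSeq accession (GRCm38.p6 table, names and gene order only), which matched 27190 of 41174 (66.0%). A gene outside the members was taken at its probe of highest mean brightness.

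The labels settle no diet, so all arrays stayed ungrouped. The slides of 4 arrays (first C10-415, C10-416, C10-417 and C10-423, second C10-424, C10-425, C10-434 and C10-435) were compared with limma 3.58.1 (R 4.3.3) over probes with a value on all 8 arrays. On simulated data from the 40299 probes of that comparison, with 200 changed by 1.5 on the log2 scale, 43.5% were recovered and 5 others called. Tables were made with Python 3.11.15, numpy 2.4.6 and pandas 2.3.3. Alternatives were loess (span 0.3), median centring, normexp (offset 50) and subtraction with values under 0.5 set to 0.5 (offset 50), both on median signals followed by loess, the deposited table, flagged spots kept, a 1.5-fold limit, no filter on dim probes, brighter probes only, and each array left out. The members, the gene lists and the named genes (all members, and those of each pathway group that were called, highest or lowest) were chosen with earlier results of these data known. Cflar, Nlrc4 and Aim2 fall outside this rule and were picked once their values had been seen. Another group of the pathway list is not reported here. No sequences are printed, since the files used here hold none for the probes.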

Additional observations from a re-analysis of the deposited data

Results flagged for a closer look

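In 13 of 30 measures (ratio, Cy-5 signal and Cy-3 signal of each of the 10 probes), 1 array lay further from the other 9 than Dixon's gap test allows at the 95% level. About 1 group in 20 is flagged by chance, which would be 1.5 of 30, and measures of 1 array are not independent. The ratio of Casp2 was -2.53 on C10-413, against -2.06 to -1.69 on the other arrays. The other 12 were all signals on C10-434, the array with fewest probes well above background in Cy-5.

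In Cy-5, the log2 processed signal on C10-434 was 9.99 for Casp6 (10.72 to 11.15 elsewhere) and 7.77 for Casp8 (8.69 to 9.23 elsewhere). In Cy-3 all 10 probes were low there. The log2 signal was 11.33 for Casp1, 13.31 for Casp2, 12.56 for Casp4, 12.19 for Casp6, 11.73 for Casp8, 10.71 for Casp9 and 10.66 for Casp12. For Apaf1 it was 10.46 at A_51_P417701, 6.36 at A_51_P368696 and 7.37 at A_52_P621991. The gap to the next array was largest as a share of the range (0.787) for A_51_P368696. By the gap test the ratio of C10-434 stood apart for no member. The part of the array's low Cy-5 signal in these values was not tested.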

How the results depend on the processing

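Of 80 member medians under another way of processing, 61 moved by less than 1 SD of the probe's ratio over the arrays, 19 moved by more and 0 changed sign. The 61 include the deposited table and flagged spots kept, which shifted every member median by 0.00 and so do not test it. The largest shifts were 2.50 with normexp and 2.32 with the floor. No member probe was called higher under any alternative. With normexp, 1 member probe was lower (Casp2), 1.62% of all probes were higher and 1.35% lower. C10-413 gave the highest normexp ratio for 9 of the 10 member probes, and with that array left out as well, a choice made after the data were seen, 5 member probes were lower, with 6.47% and 5.14% of all probes. With the floor 7.35% of all probes were lower. Leaving out each array gave 7 to 8 lower member probes, 8 without C10-423 or C10-434, with 10.8% to 13.1% of all probes higher and 13.7% to 14.9% lower. Dropping spots with a flagged background ring gave 5 (13.7% of 30917 probes), since Casp2 and Casp12 then lack a value on some arrays, and dropping the filter on dim probes gave 8 (14.3%).

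The number of probes that differed between the slides was 30, and 1 with the floor, 68 among the 19482 probes with a Cy-5 signal clear of background, and 0 to 18 without 1 array. It was 18 without C10-423, 2 without C10-415 and 0 without any other single array of these slides, and the cause was not tested. The number of member probes was 0 throughout, also without each array (0 to 0). No paired analysis was possible because the labels give no groups. The Cy-5 signal over background limits Casp4, Casp12 and the dim Apaf1 probes.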
